A study of Mus musculus with 160 samples.

Results

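Counts of 9 transcription factor genes of mesenchymal cells, *Twist1*, *Twist2*, *Prrx1*, *Prrx2*, *Alx1*, *Alx4*, *Tcf21*, *Snai1* and *Snai2*, were followed over 8 sorted cell populations of the mouse aorta-gonads-mesonephros (AGM) region. The genes were chosen by name, with earlier results of these data known, and all 9 were found among the 46078 genes of the count table. The embryos carried GFP knocked into 1 *Gata3* allele (*Gata3*-GFP +/-), so that GFP+ and GFP- cells came from animals of the same genotype and all populations had a modified *Gata3* allele. Endothelial cells (EC) and haematopoietic cells (HC) were taken at E10.5, and mesenchymal cells (MC) and sympathetic nervous system cells (SNS) at E11.5, each as a *Gata3*-GFP+ and a *Gata3*-GFP- population of 20 pools with 20 cells per pool. ECs were gated on VE-cadherin without CD41 or CD45, HCs on CD41 and CD45, MCs on PDGFRB and SNS cells on NGFR (p75). Cells of several embryos were mixed for each biological replicate, of which the study had only a few for the E10.5 populations, and the columns do not say which one a pool came from. Pools were therefore the replicates here although they share sources, and p-values measure the spread between pools, which may be partly technical, and may be too small. In pools, fewer cells that express a gene and less RNA per cell cannot be told apart.

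TWIST1 and TWIST2 are basic helix-loop-helix (bHLH) proteins that bind DNA at E-boxes as dimers with E proteins, and Id proteins take up the same partners without binding DNA. PRRX1, PRRX2, ALX1 and ALX4 are paired-type homeodomain proteins of limb, facial and body wall mesenchyme, and TCF21 is a bHLH protein of the mesenchyme around visceral organs. SNAI1 and SNAI2 are zinc finger repressors that bind E-boxes and are best known for turning down cadherins when epithelial or neural crest cells become motile.

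Promoters are shown for 3 genes that the results turn on, to give the sequence next to their starts, as RefSeq lists it on GRCm38.p6. A promoter was given for 6 of the 9 members, not for *Alx1*, *Alx4* and *Snai2*. Each sequence runs 5′ to 3′ on the strand of its gene. Capitals mark a GATA letter string in *Prrx1* and, in *Snai1*, an E-box of the kind that SNAI proteins bind. The *Prrx1* sequence (chr1:163313711-163313900, minus strand) has 190 bases and stops 60 bases before the RefSeq start, where the GENCODE gene begins. Those of *Snai1* (chr2:167537945-167538194, plus strand) and *Twist2* (chr1:91801211-91801460, plus strand) have 250 bases.
*Prrx1* promoter: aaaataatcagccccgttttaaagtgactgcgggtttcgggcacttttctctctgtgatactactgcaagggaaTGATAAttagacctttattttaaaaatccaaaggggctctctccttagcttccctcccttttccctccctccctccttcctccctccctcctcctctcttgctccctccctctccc
*Snai1* promoter: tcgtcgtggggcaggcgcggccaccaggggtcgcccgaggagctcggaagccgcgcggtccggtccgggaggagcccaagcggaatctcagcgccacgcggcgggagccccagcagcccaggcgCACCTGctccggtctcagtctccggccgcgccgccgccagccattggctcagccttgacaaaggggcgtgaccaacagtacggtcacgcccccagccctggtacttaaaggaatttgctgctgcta
*Twist2* promoter: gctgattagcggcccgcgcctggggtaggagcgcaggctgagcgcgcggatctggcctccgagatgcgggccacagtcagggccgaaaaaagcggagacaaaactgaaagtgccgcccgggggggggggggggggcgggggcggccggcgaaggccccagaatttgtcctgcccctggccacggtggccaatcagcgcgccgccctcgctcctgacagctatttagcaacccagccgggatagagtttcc
The letters AGATAA as well as AGATAG, and likewise TGATAA as well as TGATAG, read on both strands, stood in the 250 bases before the RefSeq starts of *Prrx1* and *Tcf21* and in 27.1% of 27025 promoters. The letters CACCTG, on either strand, stood before *Snai1* and in 17.1% of the promoters. The palindrome of TAAT and ATTA parted by 3 bases, to which paired-type homeodomains bind as dimers, stood before 0 of the 6 members and in 0.47% of the promoters. These are matches of letters in this window and were not read as binding sites.

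Of 160 pools, 7 failed the study's limits on reads and spike-in RNA, and 6 more were left out by the rule. Counts on genes ranged from 1400824 to 16004756 in the pools used, with a median of 3780504. Levels are given in CPM, which scales the counts of a gene by the summed gene counts of its pool. The cDNA was amplified and carries no molecular identifiers, so a floor of 3 counts per pool covers counting error only. *Gata3* had means of 36.9 and 10.2 CPM in the GFP+ and GFP- MC pools used, 46.8 and 6.52 CPM in HCs and 78.7 and 12.5 CPM in ECs. The 8 mesenchymal markers summed to a median of 5021 CPM in GFP+ MCs and 3010 CPM in GFP- MCs, and to medians of 36.3 to 609 CPM in the other 6 populations.

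Some E11.5 pools went against their labels. Of the passing pools labelled MC, 6 (3 GFP+ and 3 GFP-) had more counts of *Ngfr*, the receptor gene on whose product SNS cells were gated, than of *Pdgfrb*, the receptor gene on whose product MCs were gated, and the rule leaves these out. Of the pools labelled SNS, 6 (3 GFP+ and 3 GFP-) had more *Pdgfrb* than *Ngfr*. In each E11.5 population these pools were the last 3 in the order of the deposited columns, and the cause was not tested. *Gata3* in these 12 pools also ran against the GFP labels, with a mean of 46.02 CPM in the 3 GFP+ and 304 CPM in the 3 GFP- MC pools, and of 15.6 CPM in the 3 GFP+ and 47.3 CPM in the 3 GFP- SNS pools. *Twist1*, *Twist2*, *Prrx1*, *Prrx2* and *Snai2* followed the same division, with each of the 6 SNS pools above all 6 MC pools. *Prrx1* had at most 25.7 CPM in the 6 MC pools and at least 248 CPM in the 6 SNS pools. For *Alx1*, *Alx4*, *Tcf21* and *Snai1* the 6 MC and the 6 SNS pools overlapped. *Tcf21* reached 37.2 CPM in the 3 GFP+ MC pools and went down to 6.82 CPM in the 3 GFP- SNS pools. Calls in MCs and SNS cells are therefore given with and without these pools.

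**Figure D1:**
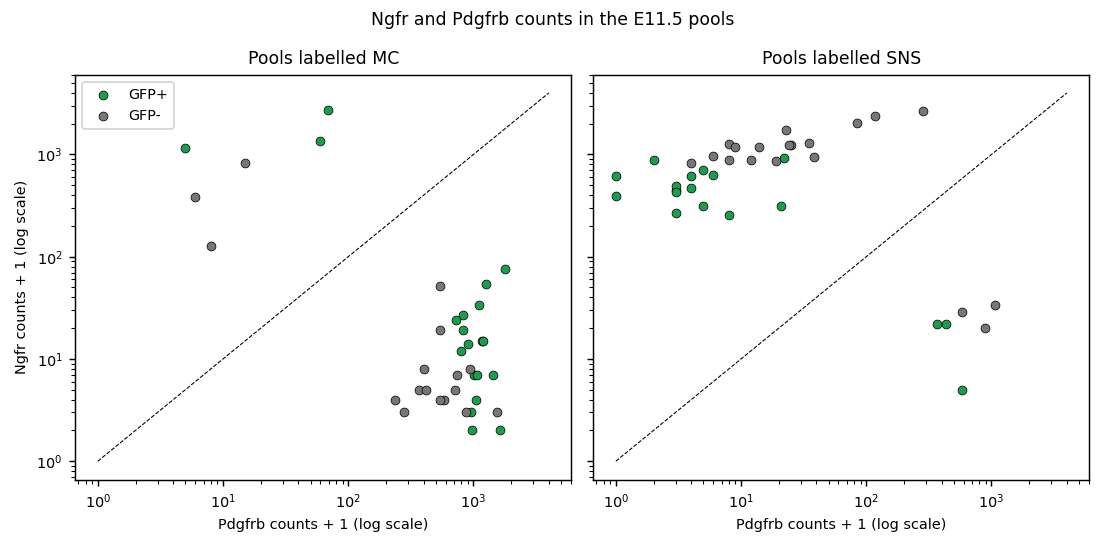
Counts of *Ngfr* (vertical axis, plus 1, log scale) against counts of *Pdgfrb* (horizontal axis, plus 1, log scale) in every passing pool labelled MC (left) and SNS (right), with 1 point per pool, GFP+ pools in green and GFP- pools in grey. The dashed line marks equal counts, and 6 MC pools lie above it while 6 SNS pools lie below it.

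In MCs, 4 of the 9 factors were lower in GFP+ than in GFP- pools (*Alx4*, *Alx1*, *Twist2* and *Prrx1*), *Snai2* was higher, and *Twist1*, *Prrx2*, *Tcf21* and *Snai1* did not pass the threshold. Genes were called where edgeR's quasi-likelihood test gave a p below 0.01, adjusted by Benjamini-Hochberg over all genes tested, and the log2 fold change was larger than 0.1 either way. Of the 15226 genes tested in MCs, 4.9% were lower and 5.52% were higher in GFP+ pools. *Alx4* entered the test through its GFP- pools alone, so nothing was read from the share of members called. All 9 members were tested, and their median change was -0.66 on the log2 scale, while that of all genes was 0.01. The 17 GFP+ and 14 GFP- pools below are those with more *Pdgfrb* than *Ngfr*.

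Of the Twist factors, *Twist2* (ENSMUSG00000007805, chromosome 1 from 91801461 to 91848028) ranged from 5.80 to 30.3 CPM in the GFP+ MC pools, with a median of 13.98 CPM, and from 27.9 to 64.2 CPM in the GFP- pools, with a median of 45.5 CPM. All but 1 of the 17 GFP+ pools lay below every GFP- pool. The log2 fold change of *Twist2* was -1.54 (SE 0.19, adjusted p = 2.26e-07, edgeR). In GENCODE, 46.5% of its exon bases are shared with *Gm29100* on the opposite strand, and the strand setting of the counting is not given in the sources used here. *Gm29100* itself had means of 0.81 and 1.89 CPM in the GFP+ and GFP- pools. *Twist1* (ENSMUSG00000035799, chromosome 12 from 33957671 to 33959829) had 9.57 to 53.3 CPM in the GFP+ pools, with a median of 22.1 CPM, and 25.8 to 122.3 CPM in the GFP- pools, with a median of 39.03 CPM. The groups overlapped, and its log2 fold change of -0.66 (SE 0.22) was not called (adjusted p = 0.0305, edgeR).

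Among the paired-type genes, the Alx genes had the largest fitted differences. *Alx1* (ENSMUSG00000036602, chromosome 10 from 102998707 to 103030215) had 0 to 10.2 CPM in the GFP+ MC pools, with a median of 4.42 CPM, and 10.46 to 72.4 CPM in the GFP- pools, with a median of 21.4 CPM. The groups did not overlap, and *Alx1* had 0 counts in 3 GFP+ pools. Its log2 fold change was -2.73 (SE 0.52, adjusted p = 2.11e-04, edgeR). *Alx4* (ENSMUSG00000040310, chromosome 2 from 93642384 to 93681339) had 0 to 6.36 CPM in the GFP+ pools, with a median of 0 and 9 of 17 pools at 0 counts. It had 0.55 to 16.5 CPM in the GFP- pools, with a median of 9.83 CPM, and 11 of these 14 pools held at least 10 counts. The groups overlapped, with 10 of the 14 GFP- pools above every GFP+ pool, and the log2 fold change was -3.24 (SE 0.69, adjusted p = 7.95e-04, edgeR).

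The Prrx genes were close to each other in their relative change, although only *Prrx1* passed. *Prrx1* (ENSMUSG00000026586, chromosome 1 from 163245119 to 163313710) had 216 to 346.5 CPM in the GFP+ MC pools, with a median of 312 CPM, and 274 to 554 CPM in the GFP- pools, with a median of 382.5 CPM. This is a log2 fold change of -0.38 (SE 0.09, adjusted p = 0.00207, edgeR), and 10 of the 14 GFP- pools lay above every GFP+ pool. *Prrx2* (ENSMUSG00000039476, chromosome 2 from 30834972 to 30881251) had 27.1 to 66.7 CPM and 28.7 to 83.6 CPM in GFP+ and GFP- pools, with medians of 32.4 and 52.04 CPM. Its log2 fold change was -0.36 (SE 0.16) at an adjusted p of 0.12 by edgeR.

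*Tcf21* (ENSMUSG00000045680, chromosome 10 from 22817281 to 22820174) had 0 to 56.7 CPM in the GFP+ MC pools (median 8.41 CPM) and 5.59 to 74.9 CPM in the GFP- pools (median 28.2 CPM). The ranges overlapped widely, with a log2 fold change of -1.24 (SE 0.51) and an adjusted p of 0.0959 by edgeR.

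The Snail genes went apart. *Snai2* (ENSMUSG00000022676, chromosome 16 from 14705852 to 14709385) had 197 to 465.5 CPM in the GFP+ MC pools, with a median of 279 CPM, and 123.98 to 282 CPM in the GFP- pools, with a median of 197 CPM. It was the 1 member that was higher in GFP+ MCs, by a log2 fold change of 0.46 (SE 0.11, adjusted p = 0.00336, edgeR), and 8 of 17 GFP+ pools lay above every GFP- pool. *Snai1* (ENSMUSG00000042821, chromosome 2 from 167538195 to 167542814) had 39.6 to 181 CPM and 36.9 to 162 CPM in the GFP+ and GFP- pools, with medians of 63.8 and 93.4 CPM. Its log2 fold change was -0.29 (SE 0.21, adjusted p = 0.382, edgeR), within the spread of the pools. The remaining overlap in annotation was that of *Alx1*, which shares 4.22% of its exon bases with *Gm17028* on the same strand.

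With the 6 MC pools of high *Ngfr* put back, the calls of *Twist2* (-1.48, adjusted p = 0.03), *Prrx1* (-0.34, adjusted p = 0.721) and *Snai2* (0.54, adjusted p = 0.367) were lost, while *Alx1* (-2.41, adjusted p = 0.00525) and *Alx4* (-3.17, adjusted p = 0.00598) stayed past the threshold (edgeR). The call of *Prrx1* was also lost with size factors from the ERCC spike-in RNAs, where its change was -0.23, and with the pools that failed the limits, where it was -0.30. Of the 8 mesenchymal markers, 5 were higher and 0 lower in GFP+ MCs, whereas 4 of the 9 members were lower and 1 higher. The part of the markers in these results was not tested.

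**Figure D2:**
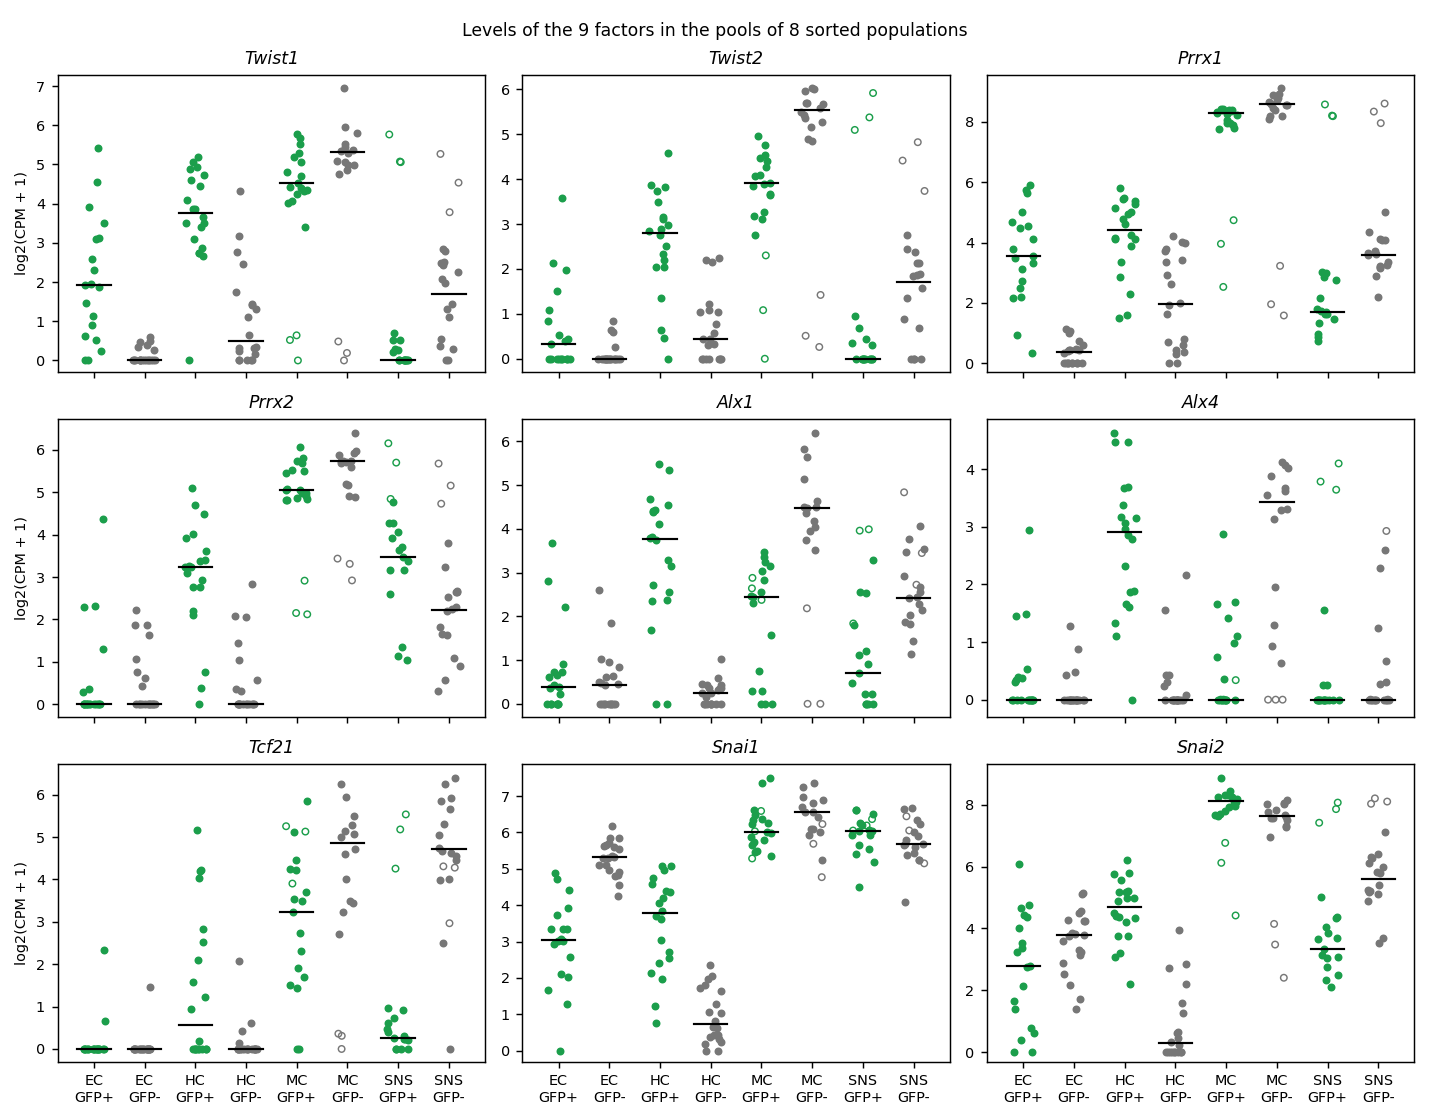
Level of each of the 9 genes as log2(CPM + 1) (vertical axis, a separate scale for each gene) in every passing pool of the 8 populations (horizontal axis), with GFP+ pools in green and GFP- pools in grey. Hollow points are the 12 E11.5 pools whose *Ngfr* and *Pdgfrb* counts go against their label, and black lines are medians of the filled points. The hollow MC points of *Prrx1* lie far below the filled ones, and the hollow SNS points far above.

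Levels of different genes were set side by side per kilobase of exon, with all annotated exons of a gene taken as its length. By this measure *Snai2* was the highest member in both MC populations, at a mean of 137.98 CPM per kb in GFP+ and 102.16 CPM per kb in GFP- pools. *Snai1* followed with 47.4 and 58.9 and *Prrx1* with 26.7 and 35.3. *Prrx2* had 19.6 and 25.5 and *Twist1* 16.9 and 27.4 CPM per kb, so that *Prrx2* was above *Twist1* in GFP+ and below it in GFP- pools. *Alx4* was the lowest, at 0.13 and 1.28 CPM per kb. *Snai2* made up 53.2% of the summed CPM per kb of the 9 genes in GFP+ MCs and 36.2% in GFP- MCs. The order depends on the length used, which was 11066 bases for *Prrx1* and 2021 for *Snai2*. In CPM without it, *Prrx1* was above *Snai2*, with means of 295 and 279 CPM in GFP+ and 391 and 206 CPM in GFP- MCs.

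The genes related to the members were described by 3 lists, chosen as were the members. Of 12 related factors, 9 were tested in MCs, with 2 higher in GFP+ pools and 1 lower. These were *Hand2*, a bHLH factor of heart, limb and sympathetic neurons (log2 fold change 1.78), and the cadherin repressors *Zeb2* (0.66) and *Zeb1* (-0.58). Of 7 bHLH partners and Id inhibitors, *Id1* (0.79), *Id3* (0.47) and *Id4* (1.55) were higher and the E protein gene *Tcf12* (-0.49) was lower. Of 10 tested adhesion and matrix genes of the epithelial-mesenchymal switch, 5 were higher and 0 lower, among them *Postn* (1.65) and *Fn1* (1.34), which encode matrix proteins, and the mesenchymal cadherin gene *Cdh11* (0.72). The medians of the 3 lists were -0.05, -0.20 and 0.59.

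No correlation between related genes passed the threshold among MC pools. Pearson's r of log2(CPM + 1) was -0.40 for *Twist1* and *Twist2* in the 17 GFP+ pools (p = 0.111 by a two-sided permutation test of 100000 resamples, adjusted p = 0.886 over 8 relations), with a Spearman's rho of -0.50 (permutation p = 0.0411, adjusted p = 0.329). Without the 2 pools farthest from the median of *Twist1*, r was -0.49. For the other 7 relations, which were the same pair in the 14 GFP- pools and *Prrx1* with *Prrx2*, *Alx1* with *Alx4* and *Snai1* with *Snai2* in each population, r lay between -0.21 and 0.28. All 7 had an adjusted permutation p of 0.983, and without the 2 farthest pools their r lay between -0.53 and 0.50. Their rho lay between -0.38 and 0.31, with adjusted permutation p from 0.62 to 1.

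In HCs, which are not mesenchymal, the 9 factors were also counted. All 9 were higher in GFP+ than in GFP- pools (edgeR), where 17.1% of the 16200 genes tested were higher and 9.53% lower. Of the 9, 7 (all but *Twist1* and *Prrx1*) entered the test through their GFP+ pools alone, so the count is a description and nothing was read from it. The number of members with at least 10 counts in a pool had a median of 8 in the 20 GFP+ HC pools and of 1 in the 20 GFP- HC pools. It ran from 0 to 9 in GFP+ HCs, where 3 pools reached all 9 and 1 pool none, and from 0 to 6 in GFP- HCs, where 7 pools reached none.

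*Alx1* had the largest fitted difference in HCs. It had 0 to 43.9 CPM in the GFP+ HC pools, with a median of 12.6 CPM, and 0 to 1.05 CPM in the GFP- pools, with at most 3 counts in each. Of the 20 GFP+ pools, 18 lay above every GFP- pool. Against the floor of 3 counts per pool, the mean of 14.2 CPM in GFP+ HCs was at least 18.2-fold higher (adjusted p = 9.19e-11, edgeR). *Alx4* had 0 to 23.8 CPM in the GFP+ HC pools (median 6.53 CPM) and 0 to 3.49 CPM in the GFP- pools (median 0). Its log2 fold change was 4.66 (SE 0.66, adjusted p = 4.41e-07, edgeR), and 13 of 20 GFP+ pools lay above every GFP- pool.

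Both Snail genes were higher in most GFP+ HC pools. *Snai1* had 0.68 to 32.6 CPM in the GFP+ HC pools, with a median of 12.7 CPM, and 0 to 4.11 CPM in the GFP- pools, with a median of 0.66 CPM. The log2 fold change of *Snai1* was 3.64 (SE 0.49, adjusted p = 1.49e-07, edgeR), and 16 of 20 GFP+ pools lay above all GFP- pools. *Snai2* had 3.65 to 72.4 CPM and 0 to 14.3 CPM in the GFP+ and GFP- HC pools, with medians of 24.99 and 0.22 CPM, a log2 fold change of 4.04 (SE 0.59, adjusted p = 6.80e-07, edgeR).

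*Prrx1* and *Twist1* had the smallest fitted differences in HCs and reached 10 counts in 11 and 5 of the 20 GFP- pools. *Prrx1* had 1.82 to 54.9 CPM in the GFP+ HC pools, with a median of 20.8 CPM, and 0 to 17.6 CPM in the GFP- pools, with a median of 2.92 CPM (log2 fold change 2.10, SE 0.51, adjusted p = 0.00113, edgeR). *Twist1* had 0 to 35.5 CPM and 0 to 19.1 CPM in the GFP+ and GFP- HC pools, with medians of 12.5 and 0.42 CPM (log2 fold change 2.76, SE 0.57, adjusted p = 1.66e-04, edgeR). The ranges of both genes overlapped, with 11 and 7 of 20 GFP+ pools above every GFP- pool. For *Prrx2* the log2 fold change was 3.63 (SE 0.68), for *Twist2* 2.95 (SE 0.59) and for *Tcf21* 4.09 (SE 0.93), at adjusted p = 4.31e-05, 8.97e-05 and 4.90e-04 in that order (edgeR). *Tcf21* was the most uneven, with 9 of 20 GFP+ HC pools at 0 counts and others reaching 35.04 CPM, and it did not pass under the study's own test (3.88, adjusted p = 0.0128).

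The members stood in other proportions in GFP+ HCs than in MCs. For every 100 CPM per kb of *Prrx1*, GFP+ HCs had 116.1 of *Alx1* and 52.6 of *Alx4*, whereas GFP+ MCs had 2.68 and 0.48 and GFP- MCs 13.7 and 3.61. A high value of *Alx1* was not particular to GFP+ HCs. Without the pools of more *Pdgfrb* than *Ngfr*, it was 105.6 in GFP+ and 90.7 in GFP- SNS cells. In GFP- ECs, where *Prrx1* was at the floor, it was 385.6, while GFP+ ECs had 14.4 and GFP- HCs 7.08. *Alx1* was at a mean of 14.2 CPM in GFP+ HCs and 4.11 CPM in GFP+ MCs, while *Prrx1* was at 23.5 and 295 CPM. The populations differ in stage as well as in cell type, and these levels were not tested against each other.

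**Figure D3:**
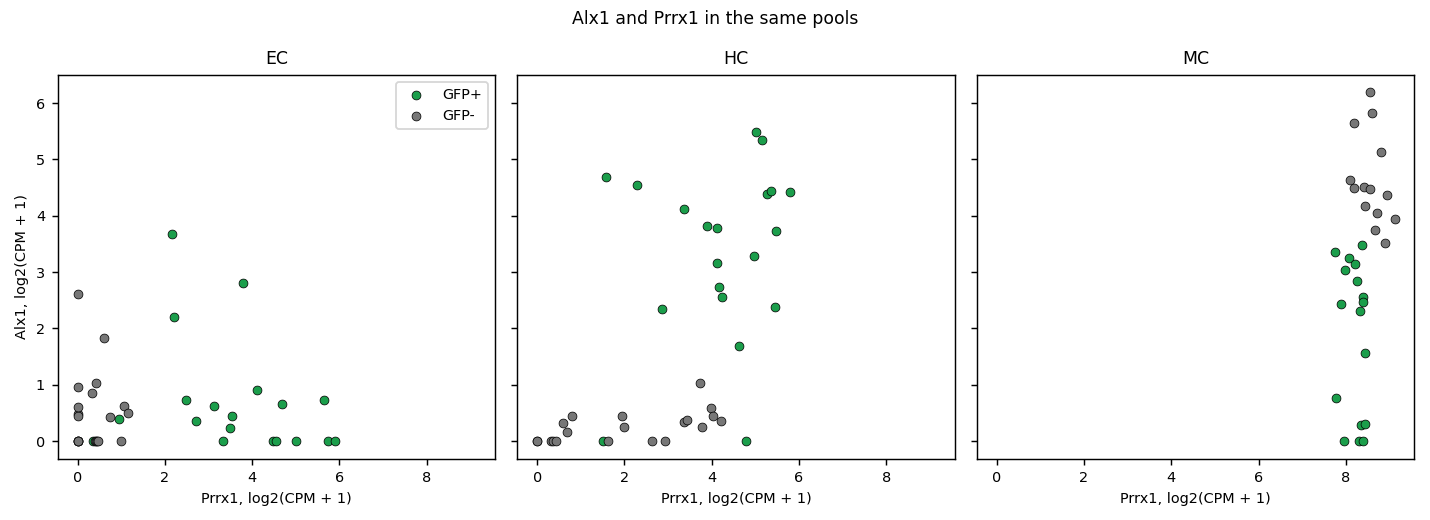
Level of *Alx1* (vertical axis) against that of *Prrx1* (horizontal axis), both as log2(CPM + 1), in the pools of ECs (left), HCs (middle) and MCs with more *Pdgfrb* than *Ngfr* (right), with 1 point per pool, GFP+ in green and GFP- in grey. GFP+ HC pools reach the *Alx1* levels of GFP- MC pools, up to 43.9 CPM, at *Prrx1* levels of at most 54.9 CPM, and GFP- HC pools stay at or below 1.05 CPM of *Alx1*.

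Genes of several other cell types were also higher in GFP+ HCs. Of the 8 mesenchymal markers, 7 were higher, and their summed level was 19.6 to 917 CPM in GFP+ HC pools and 2.90 to 154.7 CPM in GFP- HC pools. Of the 9 sympathetic neuronal markers, 8 were tested and 8 were higher, with sums of 0.68 to 2041 CPM in GFP+ and 1.65 to 26.7 CPM in GFP- pools. None of the mesenchymal or sympathetic neuronal markers was at 0 counts in every pool of either HC population. Of the 8 endothelial markers, 7 were higher. Of the markers of Schwann precursors 3 of 4 tested were higher, and of those of nephric epithelium 2 of 2. A mean of 1 CPM in GFP- HCs was reached by 3 of the 9 sympathetic neuronal and 1 of the 6 Schwann precursor markers. No nephric epithelial marker reached it. The counts for these markers are therefore a description and nothing was read from them. Of the 8 haematopoietic markers, 6 were lower and 1 was higher, with sums of 2369 to 5995 CPM in GFP+ and 5376 to 7336 CPM in GFP- pools. *Ptprc*, which encodes CD45, had a mean of 187.5 CPM in GFP+ and 407.5 CPM in GFP- pools, and *Itga2b*, which encodes CD41, 273 and 22.8 CPM. All 9 members stayed past the threshold without 3 GFP+ HC pools that stood apart, and the lowest change was then 1.95 for *Prrx1*. Of these pools, 1 had 3.65 CPM of *Ptprc* and the others the highest sums of sympathetic neuronal markers. As before, 7 of the 9 members entered the test through their GFP+ pools alone, so this count too is a description. The part of cells or RNA of other types in the levels of the 9 factors was not tested.

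Of the lists of related genes, all 3 had more genes higher than lower in GFP+ HCs. Of 11 related factors tested, 7 were higher and 1 lower in GFP+ HCs, and their median change was 2.97. The bHLH gene *Hand1* had means of 11.98 CPM in GFP+ HCs and 1.67 CPM in GFP+ MCs. The 1 lower gene was *Zeb2* (log2 fold change -0.62, adjusted p = 2.83e-05, edgeR), which blood cells also express. Of the 7 bHLH partners and Id inhibitors, 4 were higher (*Tcf12*, *Id2*, *Id3* and *Id4*) and 0 lower. Of 11 adhesion and matrix genes tested, 10 were higher and *Vim* was lower (-0.63). The 10 include both *Cdh1* (4.92), the epithelial cadherin that SNAI proteins repress in epithelia, and *Cdh2* (4.11), the neural cadherin.

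In GFP+ ECs *Twist1* and *Prrx1* were higher and *Snai1* was lower than in GFP- ECs, where 19.5% of the 15073 genes tested were higher and 16.5% lower (edgeR). *Snai2* and *Prrx2* did not pass, and *Twist2*, *Alx1*, *Alx4* and *Tcf21* had too few counts to be tested. *Twist1* and *Prrx1* entered the test through their GFP+ pools alone, so nothing was read from the share of members called. *Prrx1* had 0.27 to 58.6 CPM in the 19 GFP+ EC pools, with a median of 10.7 CPM, and 0 to 1.21 CPM in the 20 GFP- EC pools. *Twist1* had 0 to 42.1 CPM in the GFP+ pools, with a median of 2.82 CPM, and 0 to 0.51 CPM in the GFP- pools. All GFP- EC pools had at most 3 counts of either gene, while 17 and 15 of 19 GFP+ pools lay above all of them. Against the floor of 3 counts per pool, the mean of *Prrx1* was at least 16.3-fold and that of *Twist1* at least 5.98-fold higher in GFP+ ECs (adjusted p = 2.64e-11 and 2.94e-08, edgeR).

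*Snai1* went the other way in ECs. It had 0 to 28.3 CPM in the GFP+ EC pools, with a median of 7.23 CPM, and 18.1 to 71.2 CPM in the GFP- EC pools, with a median of 38.8 CPM. Of the 19 GFP+ pools, 16 lay below every GFP- pool, and the log2 fold change was -2.09 (SE 0.30, adjusted p = 2.41e-07, edgeR). *Snai2* had 0 to 67.2 CPM and 1.65 to 34.3 CPM in the GFP+ and GFP- EC pools, with medians of 5.87 and 12.7 CPM and a log2 fold change of -0.23 (SE 0.50, adjusted p = 0.728, edgeR). *Prrx2* had 0 counts in 13 of 19 GFP+ and 12 of 20 GFP- EC pools, with a log2 fold change of 1.14 (SE 0.88, adjusted p = 0.292, edgeR), whose sign depended on the test. Of the summed CPM per kb of the 9 genes, *Snai1* and *Snai2* held 76.97% and 21.01% in GFP- ECs, and 30.7% and 30.6% in GFP+ ECs.

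All 6 mesenchymal markers tested were higher in GFP+ ECs, and the sum of the 8 was 284 to 1903 CPM in GFP+ and 14.6 to 107.9 CPM in GFP- EC pools. Only 3 of the 8 reached a mean of 1 CPM in GFP- ECs, so nothing was read from the share of these markers called. In the GFP+ EC pools *Pdgfra* reached 0.17 to 36.3 CPM, and *Dcn*, a matrix proteoglycan gene of fibroblasts, had a median of 0.18 CPM and reached 120.4 CPM. The 9 sympathetic neuronal markers summed to 276 to 753 CPM in GFP+ and 16.5 to 146.4 CPM in GFP- EC pools, with 2 of 3 tested higher, and *Phox2a* was at 0 in every GFP- pool. The 8 haematopoietic markers summed to 176 to 453 CPM and 48.9 to 164.2 CPM, with 3 of 7 tested higher. Of the 8 endothelial markers, 7 were higher and 1 was lower, with sums of 5828 to 7582 CPM in GFP+ and 3935 to 5508 CPM in GFP- EC pools. The part of these genes in the levels of *Prrx1*, *Twist1* and *Snai1* was not tested. Of 10 adhesion and matrix genes tested, 8 were higher and 2 lower in GFP+ ECs. The higher genes include *Krt18* (log2 fold change 6.43), *Ocln* (5.95) and *Tjp1* (1.39), which encode a keratin and tight junction proteins. Of 6 related factors tested, *Scx* (4.32) and *Zeb2* (1.505) were higher and *Zeb1* (-0.71) and *Tcf15* (-0.63) lower, and of 6 bHLH partners and Id inhibitors 5 were higher and *Tcf4* (-0.68) was lower.

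The GFP contrast differed between HCs and ECs for 5 of the 9 members, by the interaction in a fit of the 4 E10.5 populations (edgeR). Of the 17851 genes tested, 13.2% had a contrast that was higher in HCs and 9.27% one that was lower. *Snai1* (5.70, SE 0.57, adjusted p = 1.57e-13), *Alx1* (5.03, SE 0.94, adjusted p = 1.18e-05) and *Snai2* (4.22, SE 0.78, adjusted p = 1.00e-05) had the higher contrast in HCs. *Prrx1* (-3.74, SE 0.78, adjusted p = 8.44e-05) and *Twist1* (-2.89, SE 0.91, adjusted p = 0.00999) had the higher contrast in ECs, and that of *Twist1* was lost with ERCC size factors (-3.02, adjusted p = 0.011) and without the filter on low counts (-2.92, adjusted p = 0.0134). The values are differences of 2 log2 fold changes, and those of *Alx1*, *Prrx1* and *Twist1* include a population at the floor. *Alx1* also had means of only 1.36 and 0.65 CPM in GFP+ and GFP- ECs, too low to be tested there. It met the filter on low counts in GFP+ HCs alone, so nothing was read from the share of members called.

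Set beside GFP+ ECs, GFP+ HCs had higher levels of 5 members (*Twist2*, *Prrx2*, *Alx1*, *Alx4* and *Tcf21*) and lower levels of 0, where 23.3% of genes were higher (edgeR, the same fit). Their log2 fold changes ran from 2.49 for *Twist2* to 4.21 for *Tcf21*. Of the populations in this fit, GFP+ HCs alone met the filter on low counts by themselves for these 5 genes. Nothing was therefore read from the share of members called. Between the GFP- populations, *Twist1*, *Prrx1* and *Twist2* were higher in HCs, as were 18.1% of genes, and *Snai1* (-5.04) and *Snai2* (-2.90) were lower, as were 20.2%. No GFP- EC pool held more than 3 counts of *Twist1*, *Prrx1* or *Twist2*. Against that floor, the means in GFP- HCs were at least 2.13-fold higher for *Twist1* and at least 5.14-fold higher for *Prrx1*, and that of *Twist2*, 0.89 CPM, lay under the floor of 1.11 CPM.

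In SNS cells, the result rested on the 6 pools with more *Pdgfrb* than *Ngfr*. With these pools in the test, 0 of 9 members passed at the adjusted threshold, where 3.87% of the 16143 genes tested passed in either direction (edgeR). Among the 9, *Tcf21* had the lowest adjusted p (-2.43, SE 0.75, adjusted p = 0.0366, edgeR), and 1 of 9 had an unadjusted p under 0.05. DESeq2's Wald test called 1 of 9, *Prrx1* (-1.57), the study's own test 1, *Tcf21* (-4.84), and edgeR with ERCC size factors 1, also *Tcf21* (-2.87, adjusted p = 0.00415).

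Without the 6 pools, 8 members were tested and 5 were lower in GFP+ SNS cells, while 5.48% of the 15658 genes tested were lower. Of the 8, *Twist1*, *Twist2*, *Alx1* and *Tcf21* entered the test through their GFP- pools alone, so nothing was read from the share of members called. *Tcf21* had 0 to 0.94 CPM in the remaining 15 GFP+ pools, with a median of 0.19 CPM, and 0 to 83.7 CPM in the 16 GFP- pools, with a median of 25.2 CPM. Of the 16 GFP- pools, 15 lay above every GFP+ pool, and *Tcf21* fell by 6.78 on the log2 scale (SE 0.56, adjusted p = 9.47e-11, edgeR). *Snai2* had 3.34 to 31.5 CPM and 10.46 to 136.97 CPM in the GFP+ and GFP- pools, a log2 fold change of -2.22 (SE 0.32, adjusted p = 3.79e-06, edgeR). *Prrx1* (-2.004, adjusted p = 2.76e-05), *Twist2* (-3.55, adjusted p = 0.00107) and *Twist1* (adjusted p = 1.19e-04) were also lower. *Twist1* had at most 3 counts in every GFP+ pool, and against that floor its level was at least 4.07-fold lower than the mean of 2.57 CPM in GFP- pools. *Twist2* had at most 4 counts in every GFP+ pool. *Twist1* and *Twist2* had the opposite sign with the 6 pools in the test, at 0.16 and 0.60.

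Of the tested members that did not pass, *Snai1* had medians of 65.01 and 50.6 CPM in the GFP+ and GFP- pools without the 6 (log2 fold change 0.13, SE 0.20, adjusted p = 0.709, edgeR), and *Prrx2* medians of 10.04 and 3.69 CPM (1.43, SE 0.42, adjusted p = 0.0161, edgeR). *Snai1* held 76.3% of the summed CPM per kb of the 9 genes in these GFP+ pools. Markers of the mesenchyme and of nephric epithelium moved beside *Tcf21*, with 5 of 8 and 3 of 4 tested lower in GFP+ pools, and their part in the result was not tested.

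**Figure D4:**
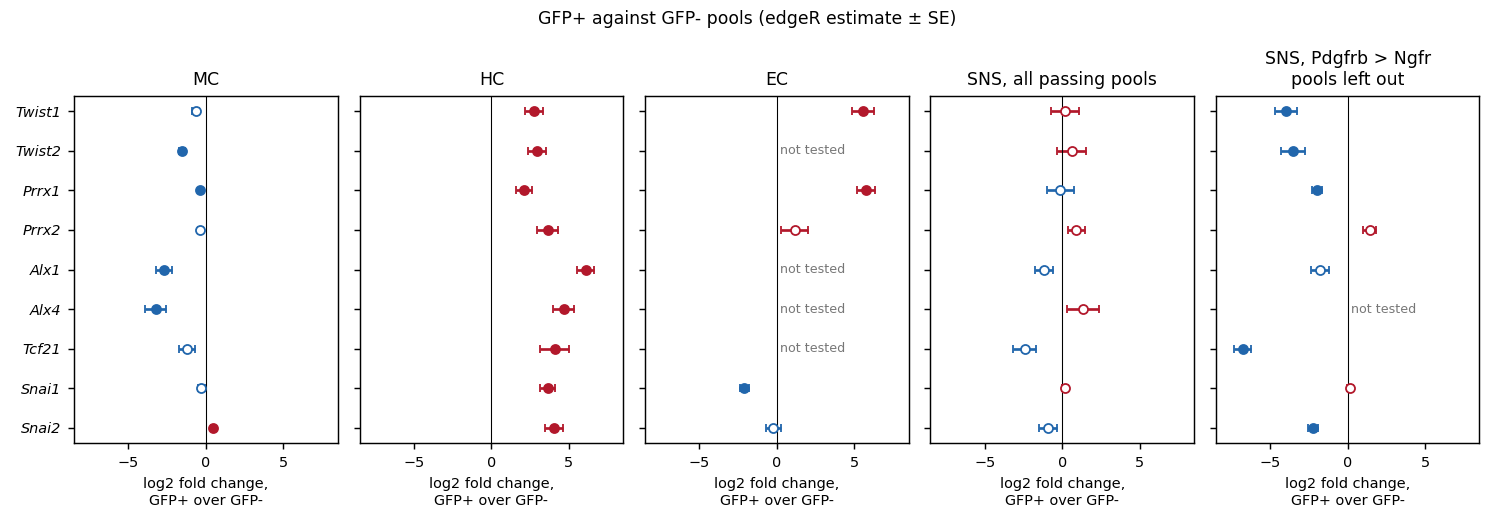
Log2 fold change of each member (rows) between GFP+ and GFP- pools (horizontal axis, positive where GFP+ pools were higher) in MCs, HCs, ECs and SNS cells by edgeR, with SNS cells shown with and without the 6 pools of more *Pdgfrb* than *Ngfr*. Points are estimates and bars their SE, red is higher and blue lower in GFP+ pools, filled points passed the threshold and hollow ones did not. All 9 points are filled and positive in HCs, while MCs hold 4 filled points below 0 and 1 above.

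The GFP contrast of MCs and SNS cells was compared in a fit of the 4 E11.5 populations (edgeR). With the 6 SNS pools, *Alx4* alone of the members passed (-4.56, SE 1.29, adjusted p = 0.00874), where 4.65% of the 17477 genes had a contrast that was lower in MCs. GFP- MCs alone of these populations met the filter on low counts by themselves for *Alx4*. *Alx4* still passed with the 6 MC pools put back (-4.49, adjusted p = 0.00936), but not with ERCC size factors (-3.89, adjusted p = 0.0273), without the filter on low counts (-4.55, adjusted p = 0.0109) or without the 6 SNS pools (-1.26, adjusted p = 0.625). *Tcf21* (5.51, SE 0.82, adjusted p = 4.95e-07), *Twist1* (3.32, SE 0.61, adjusted p = 3.92e-05), *Snai2* (2.68, SE 0.33, adjusted p = 6.40e-09) and *Prrx1* (1.64, SE 0.29, adjusted p = 1.38e-05) had the higher contrast in MCs without the 6 SNS pools, as did 5.64% of the 17309 genes tested. *Prrx2* (-1.79, SE 0.43, adjusted p = 0.00152) had the lower one, as did 4.73%.

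Between the cell types, GFP- MCs exceeded GFP- SNS cells for 7 of 9 members with the 6 SNS pools and for 8 of 9 without them, while 5.42% and 11.1% of genes were higher (edgeR). Both counts include *Alx4*, for which GFP- MCs alone of the populations in this fit met the filter on low counts by themselves. Nothing was therefore read from the share of members called. GFP+ MCs exceeded GFP+ SNS cells for 3 of 9 members with these pools and for 6 of 9 without them, where 14.6% and 18.1% of genes were higher. Without them, the log2 fold change of *Prrx1* was 6.66 in the GFP+ and 5.02 in the GFP- cells. *Tcf21* was the member that did not differ past the threshold between GFP- MCs and GFP- SNS cells, at -0.19 (SE 0.47, adjusted p = 0.811), and *Snai1* (0.35, adjusted p = 0.157), *Alx1* (1.32, adjusted p = 0.0534) and *Alx4* (2.43, adjusted p = 0.0182) did not pass between the GFP+ cells.

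Some of the calls made with the 6 SNS pools rested on a setting. With the 6 MC pools put back, *Twist1* (1.84, adjusted p = 0.0459) and *Prrx1* (2.19, adjusted p = 0.0141) no longer passed between the GFP+ cells, and *Twist1* also did not pass without the filter on low counts (2.08, adjusted p = 0.0163, edgeR). Between the GFP- cells, the calls of *Twist1* (2.60), *Prrx1* (2.40), *Alx1* (1.68), *Alx4* (2.96) and *Snai1* (0.63) were lost with the 6 MC pools, at adjusted p from 0.0149 to 0.0489. Those of *Alx1* (adjusted p = 0.0222), *Alx4* (2.72, adjusted p = 0.0107) and *Snai1* (0.26, adjusted p = 0.349) were lost with ERCC size factors, and that of *Alx1* also without the filter (1.94, adjusted p = 0.0107, edgeR).

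Ordered by their mean log2(CPM + 1), without the 12 pools that went against their labels, GFP- MCs came first for 7 of the 9 genes, GFP+ MCs for *Snai2* and GFP- SNS cells for *Tcf21*. For *Tcf21* the step down to GFP- MCs was 0.02, against a pooled SD of 1.37. The second place was held by GFP+ MCs for *Twist1*, *Twist2*, *Prrx1*, *Prrx2* and *Snai1*, but by GFP+ HCs for *Alx1* and *Alx4*. The steps from first to second place exceeded the pooled SD for *Twist1*, *Twist2*, *Prrx1* and *Snai2* and not for the other 5 genes. For *Snai1*, no step among the first 5 places, from GFP- MCs to GFP- ECs, exceeded the pooled SD.

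The genes whose levels were most like those of the members were found by Pearson's r of log2(CPM + 1) over all pools used by the rule, among 12466 genes with a mean of at least 10 CPM in some population. The pools share cell types, so r is given as a description with no p. *Prrx1* was most like *Col1a1* (r = 0.93), *Cxcl12* (0.93) and *Pdgfrb* (0.92), and *Twist1* and *Twist2* were both most like the collagen receptor gene *Ddr2* (0.89 and 0.90). *Prrx2* was most like *Dact1* (0.88), and *Snai2* most like *Tpm1* (0.89). *Tcf21* was most like *Wt1* (0.81), a zinc finger gene of the urogenital ridge and the mesothelium. *Alx1* was most like *Aldh1a2* (0.75), which encodes a retinoic acid synthesising enzyme, and *Crabp1* (0.73), which encodes a retinoic acid binding protein. *Snai1* was most like *Tuba1a* (0.88), a tubulin gene. *Alx4* did not reach a mean of 10 CPM in any population and was left out.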

How the data were processed

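RNA of 20-cell pools was amplified by Smart-seq2 and sequenced, and the authors deposited HTSeq read counts per gene for each pool. The submitters' processing notes name GSNAP, HTSeq 0.5.3p3 and mm10, whereas the study's methods name STAR with Ensembl 81, and the strand setting is not given in the sources used here. In the pools used, 4.62% to 19.8% of reads were ambiguous, 7.92% to 20.4% fell on no feature and 17.1% to 38.5% were not aligned. Pools passed with at least 500000 reads on genes and ERCC RNAs, at least 20% of reads on genes, and at most 20% mitochondrial and 20% ERCC reads, and 7 of 160 failed. The study's further limit on the number of high coverage genes was not applied. Annotation overlaps came from GENCODE M21.

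A gene entered a test if 5 or more pools held 10 or more of its counts, and tests were run with edgeR 4.0.16 (quasi-likelihood test, TMM factors, robust) in R 4.3.3, with Benjamini-Hochberg adjustment, after tests on simulated data. Alternatives used DESeq2 1.42.0 (size factors, Wald test), ERCC size factors, no filter, all pools, and the study's test with scran 1.30.0 and scanpy 1.11.5. The fits of the 4 E11.5 populations without 6 SNS pools, and of HCs without 3 pools with under 10 CPM of Ptprc or over 500 CPM of sympathetic neuronal markers, were added after seeing the data. The genes named were the 9 members, genes of the 3 related lists, the sorting genes and, for each member with a mean of 10 CPM or more in some population, genes among the 3 most alike; Pdgfra, Dcn and overlapping genes were named beside the results they touch, after their values were seen. The members and lists were chosen with earlier results of these data known. 1 gene of the list of related factors is counted with its list and not reported here.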

Additional observations from a re-analysis of the deposited data

Results flagged for a closer look

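The GFP contrast, as a log2 fold change of GFP+ over GFP- pools, differed between cell types for 6 members by the interaction in edgeR's quasi-likelihood test with all passing SNS pools. Between HCs and ECs, the difference was 5.70 for *Snai1*, 5.03 for *Alx1*, 4.22 for *Snai2*, -3.74 for *Prrx1* and -2.89 for *Twist1*. For *Alx4* the contrast of MCs less that of SNS cells was -4.56. Over all genes tested, 22.5% differed in either direction between HCs and ECs and 9.03% between MCs and SNS cells. Within its fit, *Alx1* met the filter on low counts in GFP+ HCs alone and *Alx4* in GFP- MCs alone. Nothing was therefore read from the number of members called. The call of *Twist1* was lost with ERCC size factors and without the filter on low counts. That of *Alx4* was lost under these settings and without the 6 SNS pools of more *Pdgfrb* than *Ngfr*, where the difference was -1.26.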

How the results depend on the processing

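The members gave 434 comparisons with an alternative setting, of which 381 kept direction and side of the threshold, 23 lost the call, 15 gained it and 15 changed sign. With the MC pools of more *Ngfr* than *Pdgfrb*, 698 genes passed in MCs in place of 1586, and 1017 in place of 2370 between GFP- MCs and SNS cells. Without the SNS pools of more *Pdgfrb* than *Ngfr*, 1631 passed in SNS cells in place of 624 and 3847 between GFP- MCs and SNS cells. With ERCC size factors, 1013 genes passed in SNS cells, 9207 between GFP+ MCs and SNS cells in place of 5532, and 5237 between the GFP- cells. ERCC factors shifted the median of all genes by 0.14 in MCs, 0.35 in SNS cells, -0.70 in ECs, -0.71 and -0.49 between GFP+ and between GFP- MCs and SNS cells, 0.76 between GFP+ HCs and ECs, and -0.21 and 0.67 in the E11.5 and E10.5 interactions, and the study's test shifted it by -0.15 in ECs. The share of higher genes among those called went from 53% to 81.8% in MCs, 52.1% to 83.3% in SNS cells, 54.1% to 14.3% in ECs, 46.2% to 12.3% and 40% to 6.63% between GFP+ and GFP- MCs and SNS cells, 54.2% to 85.6% between GFP+ HCs and ECs, and 58.8% to 91% in the E10.5 interaction; the study's test gave 43.7% in ECs.

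In SNS cells *Twist1* changed sign to -0.61 by DESeq2's Wald test, -0.20 with ERCC factors, -2.30 by the study's test and -3.99 without the 6 pools, and *Twist2* to -0.17, -1.96 and -3.55 by the Wald test, the study's test and without these pools. *Prrx2* in ECs changed sign to -0.38 and -0.13 by the Wald and the study's test, and *Snai1* between GFP+ MCs and SNS cells to -0.45 with ERCC factors. Without the 6 SNS pools, *Alx4* changed sign to 2.43 between GFP+ MCs and SNS cells, as did *Twist1* (3.32), *Twist2* (1.98) and *Prrx1* (1.64) in the E11.5 interaction, where *Prrx1* was 0.16 with ERCC factors. With the 6 MC pools, r of *Twist1* and *Twist2* became 0.73 in GFP+ and 0.934 in GFP- MCs, r of *Prrx1* and *Prrx2* 0.927 and 0.915, and in GFP- MCs r of *Alx1* and *Alx4* was 0.648 and that of *Snai1* and *Snai2* 0.535. Apart from what the added and omitted pools show, the cause was not tested. No paired analysis was possible because the columns carry no replicate number. At a floor of 3 counts, lower levels of *Alx4* and *Tcf21* could not be resolved.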
